A study of Mus musculus with 6 samples.

Results

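Macrophage and antigen-presentation transcripts were examined by RNA-seq in 2 cell fractions, sorted by flow cytometry out of epithelial preparations from the uteri of 3 mice without ovaries. The set comprises 33 named genes of macrophages, other myeloid cells and MHC class II, found by symbol in a count table of 26586 genes. All 33 had enough counts to be tested, as had 16896 genes in all. Every mouse carried Axin2rtTA, in which the Axin2 promoter drives a doxycycline-dependent activator, and tetOH2BJGFP, a histone H2B-GFP reporter that this activator switches on. Ovaries were removed at 4 weeks, doxycycline followed a rest of 2 weeks, and uteri were taken 4 days after it from animals aged 6 weeks. Axin2+ libraries held GFP+ cells and Axin2- libraries held GFP- cells, 3 libraries of each, 1 per mouse. The transgenes, the ovariectomy and the doxycycline were therefore common to both fractions, and the sort rested on a reporter driven by 1 promoter. Library numbers stand for mice in the labels, which also speak of pooled cells, so the p-values may measure only the spread between libraries of a pool. The comparison asks how the fluorescent fraction differed from the non-fluorescent one, and values of 3 libraries are given in the order of mice 1, 2 and 3.

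Macrophages are resident phagocytes of the uterine wall. They depend on signalling through Csf1r and on the transcription factor PU.1, take up dead cells and antibody-coated particles through scavenger and Fc receptors, and secrete complement C1q and lysozyme. They also display peptides on MHC class II, whose chains are assembled around the invariant chain Cd74. Dendritic cells and B cells make MHC class II as well, and some epithelia do so when stimulated.

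Each library held from 49714402 to 59597315 gene counts, and every pair of libraries of the same fraction differed by more than sampling noise. Both fractions were labelled endometrial epithelial cells. Epcam, an adhesion molecule of epithelium, stood at 204.5, 254 and 223 CPM (CPM, counts scaled to a common library size with TMM factors) in Axin2+ libraries, against 7.58, 18.3 and 11.35 CPM in Axin2- libraries. All 12 epithelial markers were higher in Axin2+ libraries, where their summed level was 2493 to 3552 CPM, against 225 to 316 CPM in Axin2- libraries, and none was at 0. Axin2 itself stood at 165, 243.5 and 299 CPM in Axin2+ libraries, against 369, 357.5 and 356 CPM in Axin2- libraries, a log2 fold change of -0.61 ± 0.21 (standard error, SE; edgeR adjusted p = 0.0710). The transcript thus ran against the names of the fractions without passing, and every direction below is that of the libraries as labelled. Ribosomal RNA genes took 14.75 to 16.7 percent of the counts in Axin2+ libraries and 15.3 to 23.8 percent in Axin2- libraries.

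Macrophage transcripts were higher in the Axin2+ libraries, while MHC class II transcripts overlapped between the fractions for 3 of their 4 genes. Of the 33 genes, 23 were higher in Axin2+ libraries at an edgeR adjusted p under 0.05, 0 were lower and 10 did not pass, where 14.5 percent of all genes tested were higher and 12.8 percent were lower. All 33 fold changes were above 0. DESeq2 gave an adjusted p for 32 of them, all but Cd163, and called 28 higher and 0 lower, where 16.2 percent of all genes were higher. The median log2 fold change of the 33 genes was 3.06, against -0.0077 over all genes tested. For 27 of the 33, all 3 Axin2+ libraries lay above all 3 Axin2- libraries, as they did for 23.9 percent of all genes. The genes were chosen with earlier results of these data known, so these counts describe the set and are not independent evidence. In bulk RNA, more macrophages in a fraction and more of these transcripts per macrophage cannot be told apart.

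**Figure D1:**
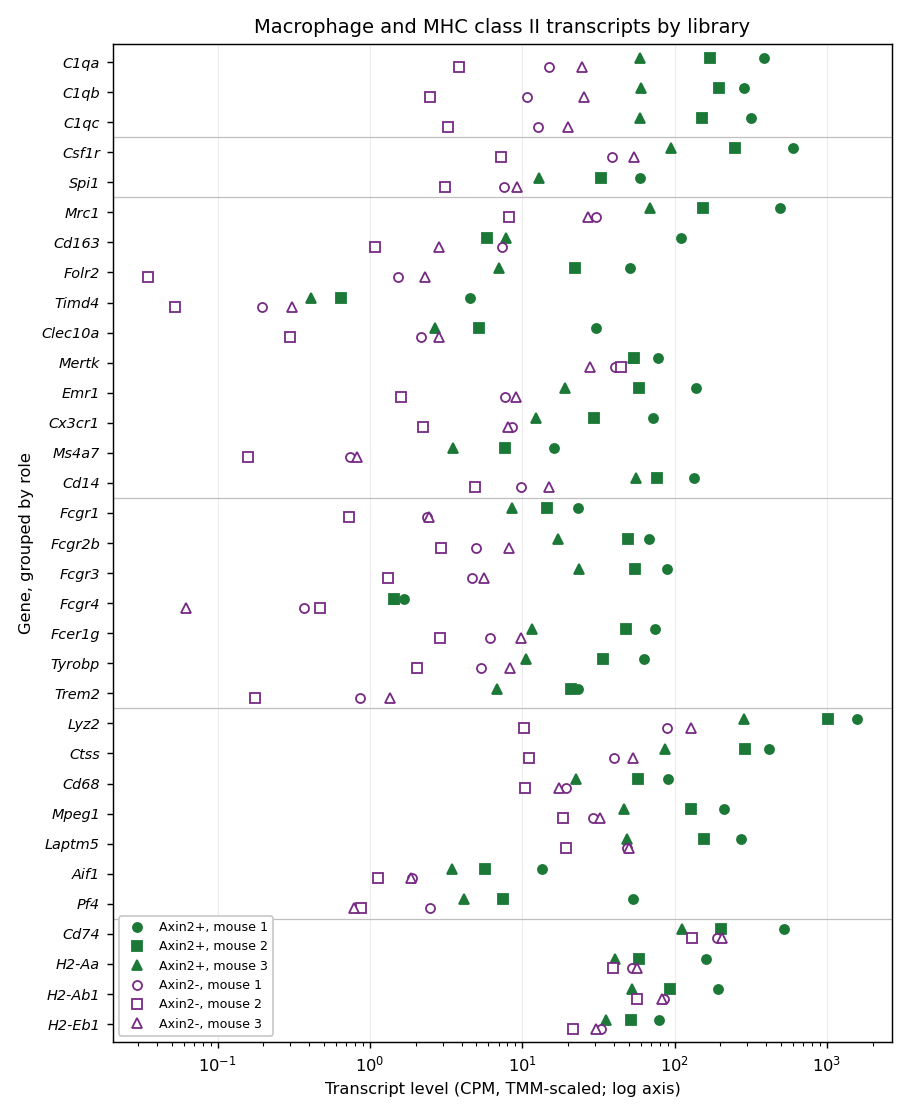
Level of each of the 33 genes in each of the 6 libraries (horizontal log axis, CPM scaled by library size and TMM factor), with genes grouped by role from top to bottom. Filled green symbols are Axin2+ libraries and open purple symbols Axin2- libraries; circle, square and triangle are mice 1, 2 and 3. For 27 genes the green symbols all lie to the right of the purple ones, and the Axin2+ library of mouse 1 is the highest for all 33.

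Promoter sequence is shown for 5 genes, because members that moved together could be compared with MHC class II members that did not pass. Each line gives 250 bases before to 50 after the gene's start, from RefSeq on GRCm38.p6, read 5′ to 3′ on the gene's own strand. Capitals mark AGGAAGT, the core of a motif that PU.1 can bind, or CTGATTGG, the Y box of MHC class II promoters, on either strand.
C1qc, chr4:136892865-136893164, minus strand: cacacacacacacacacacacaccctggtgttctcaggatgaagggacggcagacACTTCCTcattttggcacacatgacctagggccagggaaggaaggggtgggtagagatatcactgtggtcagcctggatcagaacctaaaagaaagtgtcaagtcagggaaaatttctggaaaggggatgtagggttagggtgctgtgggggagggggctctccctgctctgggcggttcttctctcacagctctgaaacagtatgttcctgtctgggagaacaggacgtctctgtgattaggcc
Lyz2, chr10:117282223-117282522, minus strand: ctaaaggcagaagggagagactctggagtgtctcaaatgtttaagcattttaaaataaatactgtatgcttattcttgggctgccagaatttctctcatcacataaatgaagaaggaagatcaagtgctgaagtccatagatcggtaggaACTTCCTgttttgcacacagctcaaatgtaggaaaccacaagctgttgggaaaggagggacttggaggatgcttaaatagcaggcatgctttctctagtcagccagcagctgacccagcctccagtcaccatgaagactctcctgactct
Trem2, chr17:48346151-48346450, plus strand: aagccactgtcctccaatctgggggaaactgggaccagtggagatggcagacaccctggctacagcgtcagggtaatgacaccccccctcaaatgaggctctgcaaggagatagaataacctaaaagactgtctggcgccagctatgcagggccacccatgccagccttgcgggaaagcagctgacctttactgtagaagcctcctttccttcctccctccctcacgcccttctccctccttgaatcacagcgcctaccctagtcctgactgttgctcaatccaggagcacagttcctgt
H2-Aa, chr17:34287774-34288073, minus strand: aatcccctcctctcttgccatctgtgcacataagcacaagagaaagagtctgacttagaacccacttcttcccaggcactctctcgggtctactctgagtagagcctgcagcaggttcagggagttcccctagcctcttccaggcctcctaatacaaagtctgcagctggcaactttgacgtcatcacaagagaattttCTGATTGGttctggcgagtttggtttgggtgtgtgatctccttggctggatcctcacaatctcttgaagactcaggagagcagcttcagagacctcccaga
H2-Eb1, chr17:34305617-34305916, plus strand: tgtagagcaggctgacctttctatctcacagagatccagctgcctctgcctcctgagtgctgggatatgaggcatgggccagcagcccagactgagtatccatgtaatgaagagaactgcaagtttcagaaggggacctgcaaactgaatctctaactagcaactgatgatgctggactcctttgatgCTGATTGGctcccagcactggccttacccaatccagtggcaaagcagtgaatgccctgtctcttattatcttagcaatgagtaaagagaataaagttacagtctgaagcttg
AGGAAGT began 195 bases before the start in C1qc and 100 bases before it in Lyz2, in both as its reverse complement, and was not found in the Trem2 window. CTGATTGG began 51 bases before the start in H2-Aa and 62 bases before it in H2-Eb1.

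Promoters of 24 of the 33 genes were searched on both strands. Cd74, Csf1r and Cd14 were among the 9 genes not searched, so nothing is known here of their promoters. AGGAAGT occurred in 9 of them, those of C1qb, C1qc, Ctss, Fcgr1, Fcgr4, Folr2, Lyz2, Mrc1 and Pf4, and in 9.35 percent of 32851 promoters of all genes. The longer GAGGAAGT, which contains it, occurred in C1qc, Ctss, Fcgr4 and Pf4, and in 3.2 percent of all promoters. CTGATTGG occurred in H2-Aa and H2-Eb1 alone among the 24 and in 4.1 percent of all promoters. These 3 strings were picked from 12 that were searched, after their matches had been seen, and a match is a description of the letters only.

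The 3 chains of C1q, which starts the classical complement pathway, were higher in Axin2+ libraries by nearly the same fold. C1qa stood at 387, 169.8 and 59.5 CPM in Axin2+ libraries, against 15.05, 3.83 and 24.7 CPM in Axin2- libraries. The values for C1qb were 284.5, 195 and 60.04 CPM in Axin2+ libraries and 10.7, 2.48 and 25.6 CPM in Axin2- libraries. C1qc had 317.5, 151 and 59.6 CPM in Axin2+ libraries and 12.7, 3.23 and 19.85 CPM in Axin2- libraries. The fractions did not overlap for any chain, and the lowest Axin2+ library, that of mouse 3, held 2.4, 2.34 and 3.0 times the level of its own Axin2- library for C1qa, C1qb and C1qc. The log2 fold changes were 3.82 ± 0.87 for C1qa, 3.80 ± 0.91 for C1qb and 3.89 ± 0.82 for C1qc (SE), with edgeR adjusted p of 0.0185, 0.0215 and 0.0140. These genes neighbour each other on the minus strand of chromosome 4 in GENCODE M21 (GRCm38), with C1qb at 136880129 to 136886187, C1qc at 136889804 to 136893065 and C1qa at 136895917 to 136898803.

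Csf1r and Spi1, the receptor and the transcription factor on which macrophage identity rests, were both higher. Csf1r, the receptor for Csf1 and Il34, had 596, 251 and 94.15 CPM in Axin2+ libraries and 38.9, 7.27 and 54.06 CPM in Axin2- libraries. Spi1, listed in the count table as Sfpi1 and encoding PU.1, had 59.6, 33.1 and 12.9 CPM in Axin2+ libraries and 7.56, 3.11 and 9.25 CPM in Axin2- libraries. For both genes the Axin2+ library of mouse 3 came closest to the Axin2- libraries without meeting them. The log2 fold changes were 3.23 ± 0.88 for Csf1r (edgeR adjusted p = 0.0338) and 2.41 ± 0.61 for Spi1 (edgeR adjusted p = 0.0273). The annotated Csf1r locus overlaps Hmgxb3, a protein-coding neighbour with a log2 fold change of -0.16 (edgeR adjusted p = 0.329), and the strand setting of the counting is not given in the sources used here.

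Among 10 scavenger, lectin and other surface receptors, 6 were higher and 4 did not pass. Mrc1, the mannose receptor, had 492, 154 and 68.7 CPM in Axin2+ libraries and 30.6, 8.20 and 27.0 CPM in Axin2- libraries, a log2 fold change of 3.44 ± 0.82 (SE; edgeR adjusted p = 0.0210). Emr1, the macrophage antigen F4/80 now called Adgre1, had 138, 58.7 and 19.1 CPM in Axin2+ libraries and 7.66, 1.59 and 9.08 CPM in Axin2- libraries, a log2 fold change of 3.56 ± 0.87 (edgeR adjusted p = 0.0235). In both genes the fractions were apart, with the Axin2+ library of mouse 3 nearest to the Axin2- libraries. Cd14, which presents bacterial lipopolysaccharide to toll-like receptors, had 135, 77.3 and 55.5 CPM in Axin2+ libraries and 9.78, 4.89 and 14.9 CPM in Axin2- libraries. Its log2 fold change was 3.18 ± 0.49, with the smallest edgeR adjusted p of the 33 (0.00414). Folr2, a folate receptor of resident macrophages, had 50.7, 22.3 and 7.04 CPM in Axin2+ libraries and 1.54, 0.035 and 2.29 CPM in Axin2- libraries, where the middle value rests on 2 reads. The fraction difference in Folr2 was 4.39 ± 1.18 on the log2 scale (edgeR adjusted p = 0.0322), and the fractions did not overlap. Ms4a7, a membrane protein of macrophages, and Cx3cr1, the receptor for fractalkine, were also higher, by 3.99 ± 0.79 and 2.60 ± 0.74 on the log2 scale (edgeR adjusted p = 0.0109 and 0.0383).

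The 4 surface receptors that did not pass were Cd163, Timd4, Clec10a and Mertk. Cd163, the scavenger receptor for haemoglobin bound to haptoglobin, stood at 109.9, 5.89 and 7.85 CPM in Axin2+ libraries and at 7.35, 1.08 and 2.84 CPM in Axin2- libraries. The Axin2+ library of mouse 1 was far above all others, and the fractions overlapped (log2 fold change 3.46 ± 1.28 SE, edgeR adjusted p = 0.0858). Timd4, a receptor for phosphatidylserine on dying cells, was scarce, at 4.54, 0.642 and 0.409 CPM in Axin2+ libraries and 0.194, 0.0524 and 0.309 CPM in Axin2- libraries. Clec10a, a lectin for galactose-type sugars, had 30.6, 5.17 and 2.66 CPM in Axin2+ libraries and 2.18, 0.297 and 2.84 CPM in Axin2- libraries, so that mouse 3 had less in its Axin2+ library. The log2 fold changes of Timd4 and Clec10a were 3.33 ± 1.13 and 2.86 ± 1.10 (edgeR adjusted p = 0.0666 and 0.0958). Mertk, a receptor through which dying cells are engulfed, had 77.5, 54.1 and 53.6 CPM in Axin2+ libraries and 40.8, 44.8 and 27.7 CPM in Axin2- libraries. Its log2 fold change of 0.71 ± 0.23 (edgeR adjusted p = 0.0559) was the smallest outside MHC class II, and its fractions did not overlap.

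Of 7 Fc receptors and partner proteins with signalling motifs, 6 were higher in Axin2+ libraries and 1 did not pass. Fcgr3, an activating receptor for IgG, had 89.9, 54.7 and 23.75 CPM in Axin2+ libraries and 4.65, 1.31 and 5.60 CPM in Axin2- libraries, a log2 fold change of 3.87 ± 0.67 (SE; edgeR adjusted p = 0.00687). Trem2, a lipid-sensing receptor that signals through Tyrobp, had 23.3, 20.9 and 6.85 CPM in Axin2+ libraries and 0.856, 0.175 and 1.36 CPM in Axin2- libraries. At 4.42 ± 0.79 (edgeR adjusted p = 0.00758) Trem2 had the largest log2 fold change of the 33 genes. Neither gene overlapped between the fractions, and each was higher in the Axin2+ library of all 3 mice. Fcgr1, the high-affinity IgG receptor, and Fcgr2b, the inhibitory one, were higher by 3.06 ± 0.56 and 3.08 ± 0.58 on the log2 scale (edgeR adjusted p = 0.00840 and 0.00909). The partner proteins with signalling motifs, Fcer1g and Tyrobp, were higher by 2.83 ± 0.72 and 2.78 ± 0.73 on the log2 scale (edgeR adjusted p = 0.0267 and 0.0299). Fcgr4, the remaining activating receptor, was scarce at 1.67, 1.44 and 1.43 CPM in Axin2+ libraries and 0.369, 0.472 and 0.0618 CPM in Axin2- libraries, and did not pass (edgeR adjusted p = 0.0556). Fcgr2b, Fcgr3 and Fcgr4 lie close together on chromosome 1 and resemble each other in sequence, so their reads may have been divided between them with some uncertainty.

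Among 7 lysosomal, effector and secreted proteins, 6 were higher and 1 did not pass. Lyz2, the lysozyme of macrophages, had 1579, 1019 and 287 CPM in Axin2+ libraries and 89.45, 10.3 and 129 CPM in Axin2- libraries, a log2 fold change of 3.66 ± 0.98 (SE; edgeR adjusted p = 0.0318). Its close copy Lyz1 had 12.96, 10.4 and 4.47 CPM in Axin2+ libraries and 0.175, 0.0524 and 0.556 CPM in Axin2- libraries, and how reads were shared between the copies is uncertain. Ctss, the cathepsin that trims the invariant chain, had 419, 292 and 86.8 CPM in Axin2+ libraries and 39.8, 11.05 and 53.1 CPM in Axin2- libraries (2.94 ± 0.72, edgeR adjusted p = 0.0241). The lowest Axin2+ library of each gene, that of mouse 3, stayed above every Axin2- library. Mpeg1, a pore-forming protein of phagocytes, was higher by 2.27 ± 0.52 on the log2 scale, and Aif1, an actin-bundling protein of macrophages, by 2.22 ± 0.54 (edgeR adjusted p = 0.0186 and 0.0230). Cd68, a glycoprotein of lysosomes, had the smallest log2 fold change of those that passed, 1.86 ± 0.49 (edgeR adjusted p = 0.0311). Pf4, a chemokine also made by platelets, had 53.2, 7.51 and 4.13 CPM in Axin2+ libraries and 2.49, 0.874 and 0.783 CPM in Axin2- libraries (3.97 ± 1.07, edgeR adjusted p = 0.0325). Laptm5, a lysosomal membrane protein of blood cells, had 271, 156 and 48.9 CPM in Axin2+ libraries and 48.8, 19.5 and 50.3 CPM in Axin2- libraries, and did not pass (edgeR adjusted p = 0.0522).

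None of the 4 MHC class II members passed in edgeR, while 1 of them, H2-Eb1, passed at an unadjusted p under 0.05 and in DESeq2. Cd74, the invariant chain, had 527, 202 and 112 CPM in Axin2+ libraries and 189.5, 130.3 and 206 CPM in Axin2- libraries. The fractions overlapped, with the Axin2+ library of mouse 1 highest and that of mouse 3 lowest of all 6. H2-Aa and H2-Ab1 encode the alpha and beta chains of the A molecule. H2-Aa had 161, 58.5 and 40.5 CPM in Axin2+ libraries and 52.4, 39.8 and 56.96 CPM in Axin2- libraries. H2-Ab1 had 193, 93.9 and 52.3 CPM in Axin2+ libraries and 84.9, 56.3 and 82.6 CPM in Axin2- libraries. In these 3 genes mice 1 and 2 had more in the Axin2+ library and mouse 3 had less. H2-Eb1, the beta chain of the E molecule, had 79.3, 51.5 and 35.6 CPM in Axin2+ libraries and 32.8, 21.6 and 30.7 CPM in Axin2- libraries, without overlap.

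The log2 fold changes of MHC class II were 0.68 ± 0.52 for Cd74, 0.80 ± 0.48 for H2-Aa, 0.60 ± 0.44 for H2-Ab1 and 0.97 ± 0.31 for H2-Eb1 (SE), with edgeR adjusted p of 0.377, 0.258, 0.351 and 0.0541. Without the Axin2+ library of mouse 1 the log2 fold changes of Cd74, H2-Aa and H2-Ab1 were -0.16, -0.0038 and -0.027 (edgeR adjusted p = 0.747, 0.993 and 0.958). Each of these was smaller in size than the SE of the same gene given above. Without both libraries of mouse 1 the 3 genes had -0.074, 0.061 and 0.10. H2-Aa, H2-Ab1 and H2-Eb1 lie on chromosome 17 in GRCm38, at 34282744 to 34287823, 34257689 to 34269419 and 34305867 to 34316674.

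**Figure D2:**
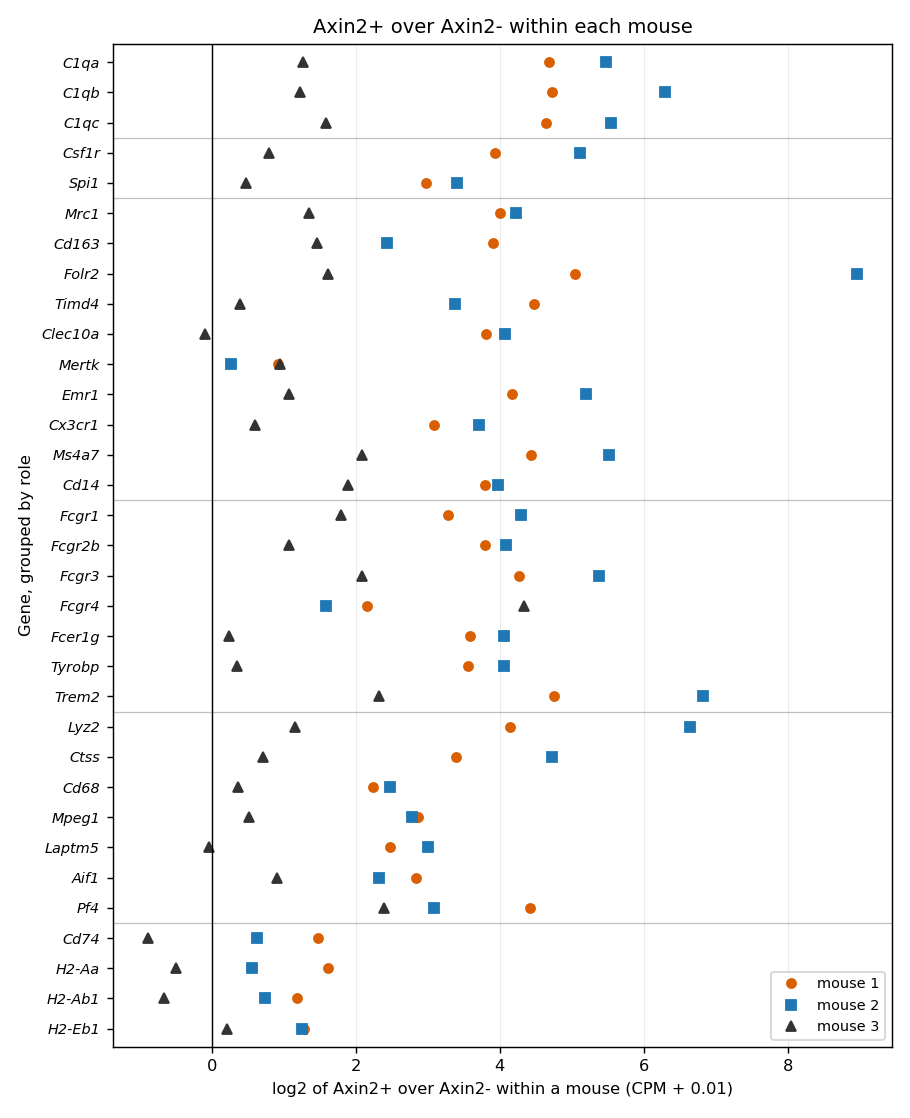
The log2 ratio of the Axin2+ to the Axin2- library of the same mouse (CPM + 0.01) for each of the 33 genes, grouped by role; circle, square and triangle are mice 1, 2 and 3, and the vertical line marks equal levels. Mouse 3 has the smallest ratio for 31 genes and lies left of the line for Laptm5, Clec10a, Cd74, H2-Aa and H2-Ab1; the ratio of Folr2 in mouse 2 rests on 2 reads in the Axin2- library.

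The size of the difference varied among the mice, and mouse 3 had the smallest for most genes. The median log2 ratio of Axin2+ to Axin2- within a mouse, with 0.01 CPM added, was 3.79, 4.05 and 0.95 in mice 1, 2 and 3, while over all genes tested it was 0.0026, -0.0076 and -0.0014. Of the 33 genes, 28 were higher in the Axin2+ library of all 3 mice, as were 31.1 percent of all genes tested. Laptm5, Clec10a, Cd74, H2-Aa and H2-Ab1 were the exceptions, each because of mouse 3. The ratio was smallest in mouse 3 for 31 of the 33 genes, the others being Fcgr4 and Mertk.

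Levels also varied between libraries of 1 fraction in an order that nearly all of the genes shared. Among Axin2+ libraries that of mouse 1 was highest for 33 of 33 genes, where it was highest for 36.5 percent of all genes tested. The Axin2+ library of mouse 3 was lowest for 32, the exception being Cd163. Among Axin2- libraries that of mouse 2 was lowest for 30 of 33 genes, where it was lowest for 36.9 percent of all genes tested, and Fcgr4, Pf4 and Mertk were the exceptions. The ratio of the highest to the lowest library of a fraction had a median of 4.74 over the 33 genes in Axin2+ libraries and 3.81 in Axin2- libraries, against 1.40 and 1.48 over all genes tested. Summed over the 33 genes, the level was 6716, 3511 and 1336 CPM in Axin2+ libraries and 809.6, 413.6 and 926.6 CPM in Axin2- libraries. The set thus took 0.703, 0.370 and 0.144 percent of the counts in Axin2+ libraries and 0.0789, 0.0397 and 0.0829 percent in Axin2- libraries.

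The number of genes that passed differed with the libraries used. It was 15, 11 and 26 without the Axin2+ library of mouse 1, 2 or 3, where 11, 8.55 and 13.2 percent of all genes were higher. Without the Axin2- library of mouse 1, 2 or 3 it was 6, 13 and 9, against 10.6, 12.1 and 10.7 percent of all genes. Without both libraries of mouse 1, 2 or 3 it was 6, 4 and 20, against 8.32, 5.93 and 9.55 percent. The part that fewer libraries had in these counts was not tested. With the mouse as a block, which the numbering in the labels provides, 15 passed, where 12.3 percent of all genes were higher. That fit no longer called C1qb, Cd68, Csf1r, Ctss, Cx3cr1, Fcer1g, Folr2, Lyz2, Spi1 and Tyrobp, and it called Cd163 and Mertk. The blocked edgeR adjusted p was 0.0576 for C1qb, 0.0623 for Csf1r, 0.0592 for Spi1 and 0.0731 for Lyz2, and 0.0245 for Cd163 and 0.0452 for Mertk. Cd14, Fcgr1, Fcgr3 and Trem2 passed in all 19 other settings. For 30 of the 33 genes the log2 fold change was above 0 in every setting, and the exceptions were Cd74, H2-Aa and H2-Ab1. The median log2 fold change of the set lay between 2.24 and 3.40 when single libraries were left out.

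**Figure D3:**
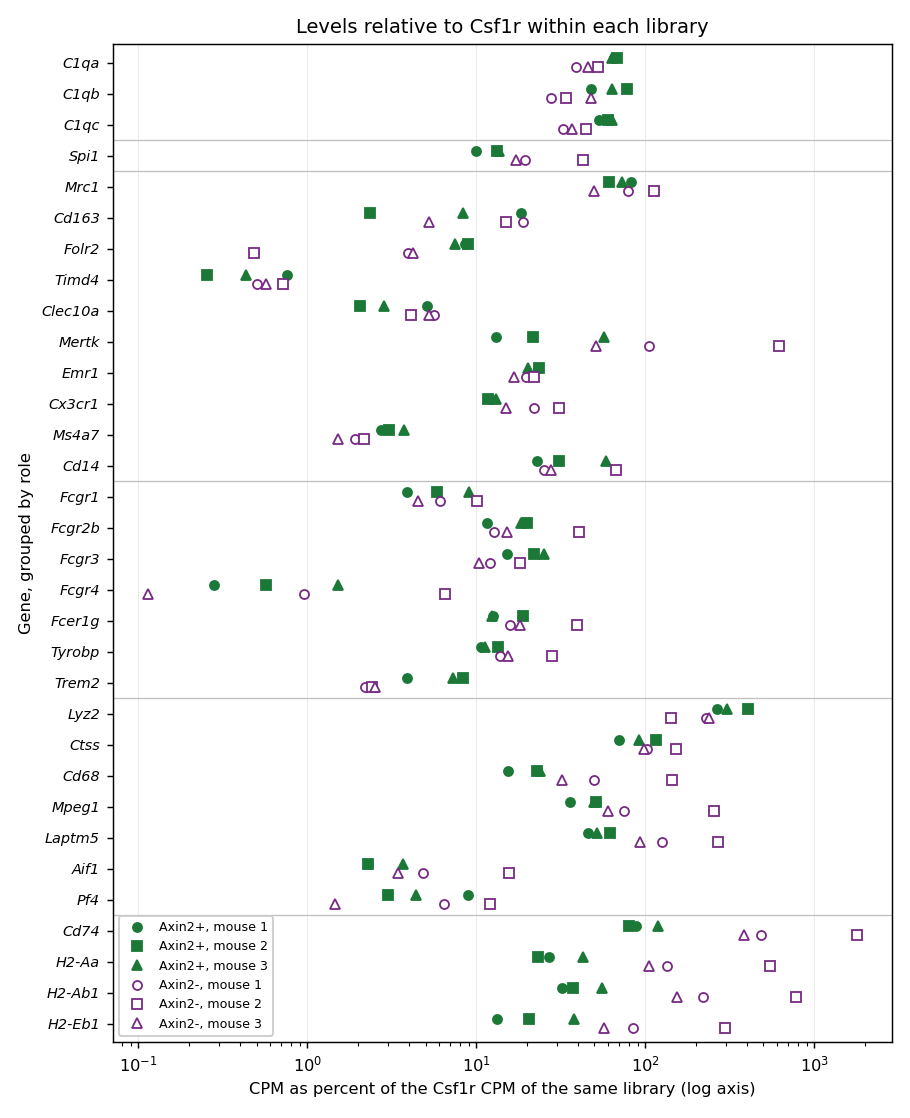
Level of the other 32 genes as a percentage of the Csf1r level in the same library (horizontal log axis), grouped by role. Filled green symbols are Axin2+ libraries and open purple symbols Axin2- libraries; circle, square and triangle are mice 1, 2 and 3. Emr1 falls within a narrow band in all 6 libraries, while the 4 MHC class II genes at the bottom lie further right in every Axin2- library than in any Axin2+ library. Cd68, Laptm5, Mpeg1, Spi1, Cx3cr1 and Tyrobp do so too.

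Set against Csf1r in the same library, Emr1 kept a nearly constant proportion, while the MHC class II genes and several others did not. The percentages are not corrected for gene length, and each is compared between libraries and not between genes. Emr1 was 23.2, 23.4 and 20.3 percent of Csf1r in Axin2+ libraries and 19.7, 21.9 and 16.8 percent in Axin2- libraries, and its highest value was 1.39 times its lowest, the narrowest range of the 32 genes. C1qa was 64.9, 67.6 and 63.2 percent of Csf1r in Axin2+ libraries and 38.7, 52.6 and 45.7 percent in Axin2- libraries, so the fractions were apart. Trem2 was 3.91, 8.32 and 7.27 percent in Axin2+ libraries and 2.20, 2.40 and 2.51 percent in Axin2- libraries. Cd74 was 88.4, 80.4 and 119 percent of Csf1r in Axin2+ libraries and 487, 1790.0 and 382 percent in Axin2- libraries. The highest Cd74 percentage fell in the Axin2- library of mouse 2, which had the least Csf1r. Cd68, Laptm5, Mpeg1, Spi1, Cx3cr1 and Tyrobp also had larger percentages in every Axin2- library than in any Axin2+ library. The highest value was 56.8 times the lowest for Fcgr4 and 47.4 times for Mertk, against 22.3 to 24.0 for MHC class II. Csf1r was itself called higher, so a gene with a smaller fold change tends to have larger percentages in Axin2- libraries.

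The 4 MHC class II genes together had 960.1, 406 and 240.4 CPM in Axin2+ libraries and 359.6, 248 and 377 CPM in Axin2- libraries. The other 29 genes had 5756, 3105 and 1096 CPM in Axin2+ libraries and 450.0, 165.6 and 549.9 CPM in Axin2- libraries. The ratio of the first sum to the second was 0.167, 0.131 and 0.219 in Axin2+ libraries and 0.799, 1.5 and 0.685 in Axin2- libraries. The fractions did not overlap in this ratio, which was lower in the Axin2+ library of all 3 mice; it is given as a description, since the genes had been chosen.

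**Figure D4:**
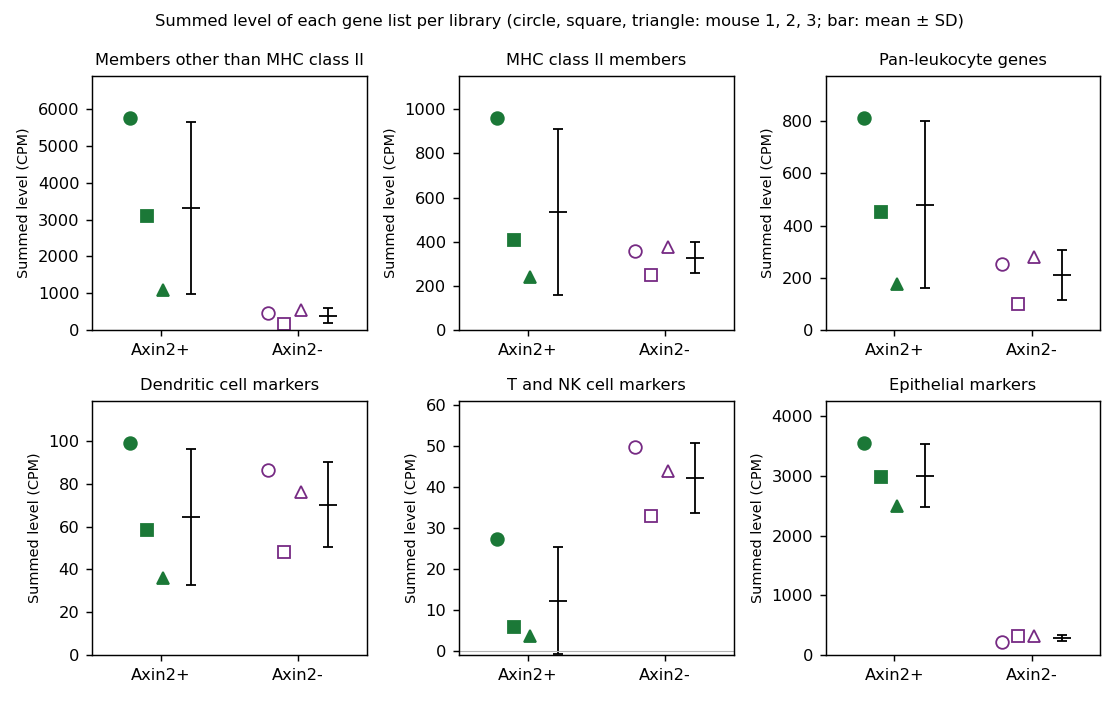
Summed level (CPM) of 6 gene lists in each library, with Axin2+ libraries in filled green and Axin2- libraries in open purple; circle, square and triangle are mice 1, 2 and 3, and each bar is the mean ± SD of 3 libraries. The 29 members other than MHC class II are apart between fractions (1096 to 5756 CPM in Axin2+, 165.6 to 549.9 CPM in Axin2-), as are the epithelial markers and, with less in Axin2+, the T and NK cell markers, while the sums of MHC class II, pan-leukocyte and dendritic cell genes overlap.

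Scaled by the union length of annotated exons, the order of levels differed between the fractions. In Axin2+ libraries Lyz2 was the most abundant of the 33 at 731 ± 492 CPM per kb, followed by C1qa (197.5 ± 160.2), Ctss (196 ± 123), Cd74 (167 ± 130.1) and C1qb (165 ± 104; SD, n = 3 each). The distances among C1qa, Ctss, Cd74 and C1qb were smaller than the spread of any of them. In Axin2- libraries Cd74 was the most abundant at 104.5 ± 23.8 CPM per kb, followed by Lyz2 (57.9 ± 45.9), H2-Ab1 (29.1 ± 6.19), Ctss (25.5 ± 15.8) and H2-Eb1 (14.6 ± 3.05). Timd4 was the least abundant in both, at 0.857 ± 1.07 CPM per kb in Axin2+ libraries and 0.0853 ± 0.0591 CPM per kb in Axin2- libraries.

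**Figure D5:**
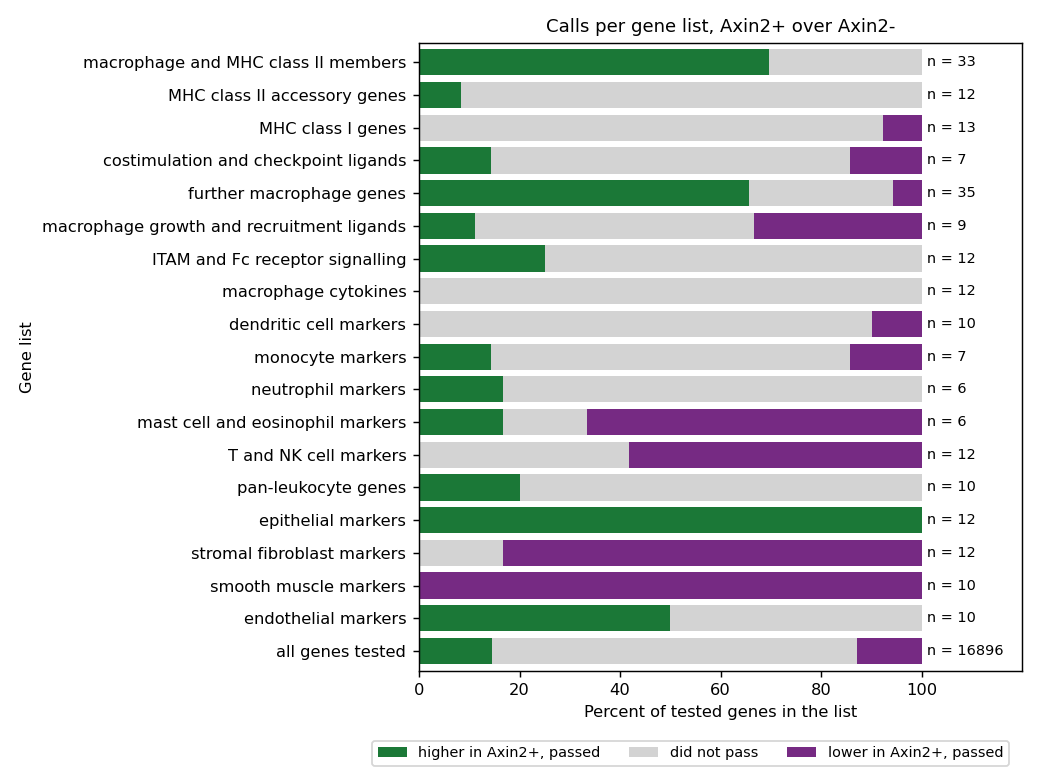
Share of the tested genes of each list that were higher in Axin2+ libraries (green), did not pass (grey) or were lower (purple) at an edgeR adjusted p under 0.05, with the number of genes tested at the right and all genes tested in the last row. The 33 genes and the further macrophage genes have 23 higher each, while MHC class II accessory genes have 1.

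Other genes of the same pathways were read from lists of related genes. Of 35 further macrophage genes, 23 were higher and 2 lower, with a median log2 fold change of 2.79. Vsig4, a complement receptor of resident macrophages, had 12.4, 2.68 and 1.49 CPM in Axin2+ libraries and 0.0389, 0.0175 and 0.0206 CPM in Axin2- libraries (7.63 ± 1.12, edgeR adjusted p = 0.00340), where the Axin2- values rest on 2, 1 and 1 reads. Cd33, a sialic acid-binding receptor, and Tlr4, the receptor for lipopolysaccharide, were higher by 3.12 ± 0.53 and 1.09 ± 0.17 on the log2 scale (edgeR adjusted p = 0.00597 and 0.00440). The 2 that were lower were the transcription factor Maf and Axl, a receptor related to Mertk. Axl had 218, 248 and 252.5 CPM in Axin2+ libraries and 572, 556 and 524.5 CPM in Axin2- libraries (-1.20 ± 0.13, edgeR adjusted p = 0.000940), and its fractions were far apart in the opposite direction to most of the list.

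Among 12 genes that signal below Fc receptors and other receptors with such motifs, 3 were higher and 0 lower, with a median log2 fold change of 1.66; 10 were higher at an unadjusted p under 0.05, and DESeq2 called 8 higher and 0 lower. The 3 were Blnk, an adaptor shared with B cells, the kinase Lyn and the phospholipase Plcg2, at 3.18 ± 0.38, 1.55 ± 0.38 and 1.83 ± 0.55 on the log2 scale (edgeR adjusted p = 0.00146, 0.0244 and 0.0469). Among 9 ligands of macrophage growth and recruitment, 1 was higher and 3 were lower. At an unadjusted p under 0.05, 2 were higher and 4 lower, and DESeq2 called 2 higher and 5 lower. Cx3cl1, or fractalkine, the ligand of Cx3cr1, had 35.9, 41.8 and 39.3 CPM in Axin2+ libraries and 10.5, 14.85 and 7.25 CPM in Axin2- libraries (1.84 ± 0.26, edgeR adjusted p = 0.00297). Both Cx3cl1 and its receptor Cx3cr1 were thus higher in the same libraries. Cxcl12, a chemokine, and Mfge8 and Pros1, which bridge dying cells to phagocytes, were lower, by -3.45 ± 0.29, -1.38 ± 0.22 and -0.84 ± 0.14 (edgeR adjusted p = 0.000432, 0.00505 and 0.00590). Gas6, of the same list, went the other way without passing (0.78 ± 0.27, edgeR adjusted p = 0.0663). It had 507, 274 and 404 CPM in Axin2+ libraries and 275, 244 and 171 CPM in Axin2- libraries, with overlap. Csf1, the growth factor that binds Csf1r, had 37.4, 17.8 and 23.3 CPM in Axin2+ libraries and 58.6, 39.7 and 40.2 CPM in Axin2- libraries, and did not pass (edgeR adjusted p = 0.080).

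Accessory genes of MHC class II mostly did not pass. Of 12 tested, 1 was higher and 0 were lower; 1 was higher and 3 were lower at an unadjusted p under 0.05, as they were by DESeq2. Lgmn, a lysosomal protease that processes antigen, was the 1 that passed, with 274.5, 161 and 73.35 CPM in Axin2+ libraries and 37.8, 16.2 and 26.6 CPM in Axin2- libraries (2.66 ± 0.52, edgeR adjusted p = 0.0101). Ciita, the master activator of MHC class II genes, had 20.1, 9.86 and 6.33 CPM in Axin2+ libraries and 11.8, 4.11 and 16.7 CPM in Axin2- libraries. Its fractions overlapped, and its log2 fold change was 0.15 (edgeR adjusted p = 0.871). The median log2 fold change of these 12 was 0.029, but -0.019 with upper quartile scaling, -0.06 by DESeq2 and -0.43 without the Axin2+ library of mouse 1. The log2 fold change was above 0 for 6 of the 12. H2-DMa and H2-DMb1 had 0.79 and 0.83 and H2-DMb2 had -1.20 (edgeR adjusted p = 0.317, 0.152 and 0.316). H2-Oa and H2-Ob, which encode the O molecule of B cells and dendritic cells, stood at 0.50, 0 and 0 CPM and at 1.43, 0.793 and 0.242 CPM in Axin2+ libraries, against 1.67, 0.839 and 1.69 CPM and 3.68, 1.19 and 3.87 CPM in Axin2- libraries, and neither passed (edgeR adjusted p = 0.175 and 0.108). H2-Eb2, another beta chain gene of the E molecule, had 0 reads in Axin2+ libraries and 76 in Axin2- libraries, at least 9.15-fold lower in Axin2+ libraries with a floor of 3 counts per library, and had too few reads to be tested.

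Of 13 MHC class I genes 0 were higher and 1 was lower, at an unadjusted p under 0.05 and by DESeq2 as well. That gene was Tap2, a peptide transporter subunit (-0.64 ± 0.10, edgeR adjusted p = 0.00468). Among 7 costimulatory and checkpoint ligands, Sirpa, a receptor for the signal that restrains phagocytosis, was higher by 1.31 ± 0.36 and Icosl was lower by -0.97 ± 0.15 on the log2 scale (edgeR adjusted p = 0.0333 and 0.00398). Cd86, which costimulates T cells, had 18.4, 5.55 and 2.25 CPM in Axin2+ libraries and 3.05, 1.15 and 1.19 CPM in Axin2- libraries without passing (edgeR adjusted p = 0.0751).

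Markers of T and NK cells and of dendritic cells, the last of which also carry MHC class II, were measured beside these genes. Of 12 T and NK cell markers, 0 were higher and 7 lower, and their sum was 27.3, 5.87 and 3.74 CPM in Axin2+ libraries and 49.9, 32.9 and 43.9 CPM in Axin2- libraries. Most of the Axin2+ sum came from Cd4, the 1 gene of the list with a log2 fold change above 0. Cd4 had 21.0, 4.59 and 2.20 CPM in Axin2+ libraries and 3.75, 0.245 and 1.36 CPM in Axin2- libraries, and did not pass (edgeR adjusted p = 0.154). Of 10 dendritic cell markers 0 were higher and 1, the growth factor receptor Flt3, was lower, at 0, 0.302 and 0.0186 CPM in Axin2+ libraries and 3.31, 1.61 and 2.76 CPM in Axin2- libraries (-4.57 ± 1.23, edgeR adjusted p = 0.0319). At an unadjusted p under 0.05 no gene of the T and NK cell or dendritic cell lists was higher, nor did DESeq2 call any higher. Lower at an unadjusted p under 0.05 were 9 T and NK cell markers and 2 dendritic cell markers, and DESeq2 called the same numbers lower. Cd3d was at 0 in the Axin2+ libraries of mice 2 and 3. The part of B cells, T and NK cells and dendritic cells in the MHC class II levels was not tested.

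Genes shared by leukocytes in general were measured as well. Ptprc, the common leukocyte antigen CD45, had 117, 52.2 and 21.9 CPM in Axin2+ libraries and 47.85, 19.5 and 56.9 CPM in Axin2- libraries. The fractions overlapped, and mouse 3 had less in its Axin2+ library (log2 fold change 0.62, edgeR adjusted p = 0.493). Among 10 pan-leukocyte genes 2 were higher, Lcp1 and Arhgdib, and 0 lower, where 14.5 percent of all genes were higher; 3 were higher and 0 lower at an unadjusted p under 0.05, and DESeq2 called 4 higher and 0 lower. Their log2 fold change was above 0 for 9 of the 10, with a median of 1.24, or 0.66 without the Axin2+ library of mouse 1. The sum over the 10 was 812, 453 and 176.5 CPM in Axin2+ libraries and 251, 101 and 278 CPM in Axin2- libraries. This sum followed the same order of mice as the 33 genes in both fractions. All 10 smooth muscle markers and 10 of 12 stromal markers were lower in Axin2+ libraries, and the part of these differences in cell content in the results above was not tested.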

How the data were processed

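The 33 genes and the 18 companion lists were chosen with earlier results of these data known. Per the labels' protocols, GFP guided the sort and libraries were made with Ribo-zero Gold. The authors deposited whole-number counts per gene. Per the submitters' processing notes, the build was mm10 and the tools were STAR 2.5.3a, featureCounts 1.5.3, edgeR 3.22.5, StringTie 1.3.3 and bcl2fastq 2.20.0.422. The annotation and the use of strand were not given in the sources used here. The authors' deposited comparison table holds, per the file headers, log2 fold changes, log2 CPM, a test score, p-values and FDR values for 15469 genes. It lists 32 of the 33 genes, all but Timd4, with 24 at an FDR under 0.05 and log2 fold changes within 0.01 of those given here. A deposited mapping summary gives the percent of read pairs assigned to 1 feature, 29.26 to 38.86.

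Counts were tested in R 4.3.3 with edgeR 4.0.16: filterByExpr (minimum count 10), TMM factors, the robust quasi-likelihood F test of Axin2+ over Axin2- and Benjamini-Hochberg adjustment over 16896 genes, threshold 0.05. An SE is the log2 fold change divided by the square root of F. The code was tested on simulated data. The labels give same-numbered libraries to 1 mouse, so the mouse block was an alternative. As a check of the pairing, the 2 libraries of a mouse deviated from their fraction means with correlations of 0.269, 0.013 and -0.067 for mice 1, 2 and 3, taken across genes, which are not independent replicates; libraries of different mice gave -0.236 to 0.25. DESeq2 1.42.0, other scalings and filters and left-out libraries made 19 alternatives. Exon lengths, coordinates and overlaps come from GENCODE M21 on GRCm38, the assembly that mm10 names, and promoters from RefSeq. By annotation 11 of the 33 genes overlap another gene, and for 2 of them, Csf1r and Cx3cr1, the partner is protein-coding. The result of the B cell list is not reported here. All 33 genes are described; of each companion list, those named are up to 4 that passed with the smallest p, or the 2 highest where none passed. Epcam, Hmgxb3, Ciita, Csf1, Gas6, Cd86, Ptprc, H2-Oa, H2-Ob, H2-DMa, H2-DMb1, H2-DMb2, H2-Eb2, Maf, Lyz1, Cd3d, Cd4 and the cytokines were named after their values were seen. A floor of 3 counts covers counting error alone, because PCR copies cannot be told from separate molecules here.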

Additional observations from a re-analysis of the deposited data

How the results depend on the processing

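The median log2 fold change of the 33 genes stayed within 2.24 to 3.40 when 1 library was left out and 2.42 to 3.82 when both libraries of a mouse were left out. The number of these genes called higher ranged from 6 to 26 when 1 library was left out, where 8.55 to 13.2 percent of all genes were higher. It ranged from 4 to 20 without a mouse, against 5.93 to 9.55 percent of all genes. With the mouse as a replicate block it was 15, against 12.3 percent, and in every setting 0 were called lower. Over all genes, 2447 were higher and 2171 lower. With 1 library or mouse left out, the higher calls ranged from 1018 to 2304 and the lower ones from 693 to 1911, the low ends both without mouse 2. Reversals came without the Axin2+ library of mouse 1, with log2 fold changes of -0.16 for Cd74, -0.0038 for H2-Aa and -0.027 for H2-Ab1, and Cd74 was at -0.074 without both libraries of mouse 1; the highest values of these 3 genes, without mouse 3, were 1.21, 1.27 and 1.04. Scaling by library size alone moved the median log2 fold change of all genes to 0.16, against -0.0077. The share of calls that were higher moved to 67.4 percent, against 53 percent. With that scaling 27 of the 33 genes were called higher, where 19.3 percent of all genes were. Without a low-count filter 16 were called higher, where 10.8 percent of all genes were. Cd163 and Timd4 had no DESeq2 or filtered value in some settings and were tested in 18 and 17 of the 19. Results for single genes were compared by direction and side of the threshold. Counts of calls in a companion list were compared by how far they changed, and list medians against the spread between mice. By these rules 1370 results stayed the same, 202 were weaker, 62 were stronger, 12 list medians moved and 4 single-gene results reversed. A change of sign in a list median was not counted as a reversal. The cause of these changes was not tested. Low read numbers limit Timd4, Fcgr4, Folr2 and Vsig4.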

Other observations

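Several cytokine transcripts were high in a single library. Of 12 such genes tested 0 passed in edgeR, while 1, Il18, was higher at an unadjusted p under 0.05 and DESeq2 called 1 higher. Cxcl2, a chemokine for neutrophils, had 128, 0.869 and 1.01 CPM in the Axin2+ libraries of mice 1, 2 and 3 and 11.8, 0.926 and 6.82 CPM in the Axin2- libraries. Il10, an anti-inflammatory cytokine, had 23.4, 0.132 and 0.112 CPM in Axin2+ libraries and 0.758, 0.140 and 0.947 CPM in Axin2- libraries. Tnf had 15.3, 0.85 and 1.73 CPM in Axin2+ libraries and 4.20, 1.33 and 5.44 CPM in Axin2- libraries. Ccl2, which recruits monocytes and is counted among the recruitment ligands rather than these 12 genes, had 43.7, 2.42 and 1.99 CPM in Axin2+ libraries and 15.6, 1.87 and 4.20 CPM in Axin2- libraries. The Axin2+ library of mouse 1 stood above the other 5 for each, and it was also the highest Axin2+ library for all 33 macrophage and MHC class II genes. The median log2 fold change of the 12 cytokines was 1.17 with that library and -0.83 without it. Igf1, a growth factor that many uterine cells make, had 106, 59.6 and 97.6 CPM in Axin2+ libraries and 118, 165 and 95.7 CPM in Axin2- libraries, so its highest library was the Axin2- library of mouse 2. Tgfb1 had 68.0, 39.0 and 13.5 CPM in Axin2+ libraries and 23.3, 9.14 and 21.5 CPM in Axin2- libraries.

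Of 7 monocyte markers tested 1 was higher, 1 was lower and 5 did not pass; 2 were higher and 3 lower at an unadjusted p under 0.05, as they were by DESeq2. Their median log2 fold change was 1.27, or 0.26 without the Axin2+ library of mouse 1. F13a1, a coagulation factor subunit, had 469.7, 136 and 37.3 CPM in Axin2+ libraries and 26.3, 2.94 and 21.1 CPM in Axin2- libraries, and was higher by 3.68 ± 1.09 on the log2 scale (edgeR adjusted p = 0.0442). Ly6c2, a surface protein of inflammatory monocytes, had 0.121, 0.0378 and 0.0372 CPM in Axin2+ libraries and 1.87, 0.489 and 1.42 CPM in Axin2- libraries, and was lower by -4.21 ± 0.86 on the log2 scale (edgeR adjusted p = 0.0121). Its levels are low in both fractions. Of 10 endothelial markers 5 were higher in Axin2+ libraries and 0 lower, with Esam, a junction protein, at 1.94 ± 0.30 on the log2 scale (edgeR adjusted p = 0.00413); 6 were higher and 1 lower at an unadjusted p under 0.05, as they were by DESeq2. Ltf, the iron-binding lactoferrin and 1 of 6 neutrophil markers tested, had 384, 197 and 259.8 CPM in Axin2+ libraries and 20.9, 70.13 and 35.1 CPM in Axin2- libraries (2.74 ± 0.47, edgeR adjusted p = 0.00654). It was the 1 neutrophil marker that passed, and uterine epithelium is known to make it too. Of 6 mast cell and eosinophil markers 4 were lower (Cpa3, Mcpt4, Cma1 and Tpsb2) and 1, Kit, was higher.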
